A study of Mus musculus with 12 samples.

Results

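10 genes of inflammatory and regulatory macrophage mediators were followed at day 6 of zymosan-induced peritonitis. They were Il1b, Il18 and Il1rn of the interleukin-1 family, Tnf, Il6 and Osm, the regulatory cytokines Il10 and Tgfb1, the growth factor Csf1, and the nitric oxide synthase Nos2. The genes were chosen by symbol, and all 10 were found among the 47643 gene identifiers of both tables. Levels were compared between treatments within each macrophage (Mϕ) subpopulation and then between the subpopulations.

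Female C57/BL6 mice of young adult age received zymosan A (5 mg/kg), a yeast cell wall preparation, into the peritoneum, so every library came from a peritoneum that had been exposed to zymosan. From day 1 onward they were injected daily with compound III (CIII, 25 mg/kg), an inhibitor of the prostaglandin E2 synthase mPGES-1, or with its vehicle (VEH; saline of 0.9% NaCl that held 0.5% carboxymethyl cellulose and Tween-80 at 1%). At day 6, F4/80lo Mϕ (CD45+, CD11b+, low in F4/80 and MerTK, Ly6G-, high in MHCII) and F4/80hi Mϕ (CD45+, CD11b+, high in F4/80 and MerTK) were sorted. In the gating scheme of the study, CD11c+, MHCII+ dendritic cells are set aside before these gates. Each of the 4 groups held 3 libraries, 12 in all, numbered 1 to 3. The sources used here do not say whether libraries are single mice or whether F4/80lo and F4/80hi libraries share mice, so p-values measure the spread between these libraries, which may be partly technical. No unchallenged mice and no protein measurements were among the data analysed here.

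IL-1β and IL-18 are made as inactive precursors, cut by caspase-1 in inflammasomes, and act through related receptors. Il1rn encodes the receptor antagonist that occupies the IL-1 receptor without signalling. TNF and IL-6 are induced through NF-κB in Mϕ that sense yeast cell walls, oncostatin M (Osm) belongs to the IL-6 family, and IL-10 and TGF-β1 restrain inflammation, TGF-β1 being released from a latent complex. CSF-1 keeps Mϕ alive through the receptor Csf1r, and prostaglandin E2 is known to modulate several of these genes in Mϕ through cyclic AMP.

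RefSeq promoter sequences on GRCm38.p6 matched 7 of the 10 genes, in 9 windows of 250 bases before a start site. Il10, Osm and Nos2 were not matched. The windows of Il1b, Il1rn and Il6 are shown because these genes carry the largest difference between subpopulations, the smallest p between treatments, and reads confined almost wholly to VEH libraries. Il1b lies on the minus strand at chr2:129364570-129371139, Il1rn on the plus strand at chr2:24336853-24351494 and Il6 on the plus strand at chr5:30013114-30019981, and all are protein coding. The windows are chr2:129371140-129371389 (minus strand) for Il1b, chr2:24345041-24345290 (plus strand), upstream of an internal start of Il1rn, and chr5:30012864-30013113 (plus strand) for Il6. Capitals mark matches, on either strand, to 4 motifs. TATAAA is the TATA box. The core of an NF-κB motif is written GGNNTTTCC. C/EBP proteins are known to bind sites like TTNNGNAA. The first 5 bases of the cyclic AMP response element are TGACG, and the whole element TGACGTCA contains them.
Il1b: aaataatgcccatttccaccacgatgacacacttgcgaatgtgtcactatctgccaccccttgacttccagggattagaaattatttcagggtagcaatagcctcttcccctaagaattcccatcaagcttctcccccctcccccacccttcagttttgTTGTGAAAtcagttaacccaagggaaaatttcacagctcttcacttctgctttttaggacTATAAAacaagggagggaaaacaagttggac
Il1rn: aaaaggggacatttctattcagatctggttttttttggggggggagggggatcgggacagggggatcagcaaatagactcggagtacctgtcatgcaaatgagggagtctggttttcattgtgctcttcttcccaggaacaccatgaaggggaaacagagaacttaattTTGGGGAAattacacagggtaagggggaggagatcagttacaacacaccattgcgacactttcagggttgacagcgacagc
Il6: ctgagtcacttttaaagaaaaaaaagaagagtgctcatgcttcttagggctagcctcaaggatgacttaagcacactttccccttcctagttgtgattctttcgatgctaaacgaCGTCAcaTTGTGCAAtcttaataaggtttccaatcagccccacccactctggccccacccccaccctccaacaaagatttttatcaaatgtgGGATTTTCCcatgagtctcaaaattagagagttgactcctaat
The Il1b window held TATAAA starting 31 bases before the start site and 1 match to TTNNGNAA. The Il6 window held GGNNTTTCC, TTNNGNAA and TGACG once each and no TATAAA, and the printed Il1rn window held TTNNGNAA once. Il1rn has 3 RefSeq starts, and the window of the third held GGNNTTTCC once and TTNNGNAA at 3 positions. Over all 32851 promoter windows, 12.4% held TATAAA, 4.93% GGNNTTTCC, 36.9% TTNNGNAA, 17.8% TGACG and 1.55% TGACGTCA. A match is a description of the letters, not of binding.

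Libraries held 426624 to 3389448 reads on genes, and 3 reads, the limit that a count of 0 allows, are 0.885 to 7.03 reads per 1000000 (RPM; counting error only). The deposited values are normalized counts set within each subpopulation, so treatments were compared on normalized counts and subpopulations on RPM. The libraries numbered 3 stood apart. Gm42418, a gene model that overlaps ribosomal RNA, took 14.3% of the reads of F4/80lo VEH library 3, 7.82% in F4/80hi VEH library 3, 2.65% and 2.86% in the CIII libraries 3 and 0.0723 to 0.579% in the other 8. H2-Ab1, an MHCII chain, was at 680 RPM in F4/80lo VEH library 3 against 3700 to 8376 in the other F4/80lo libraries. Adgre1, which encodes F4/80, was at 366 (VEH) and 368 (CIII) RPM in F4/80hi libraries 3, against 1064 to 1336 in the other 4 F4/80hi libraries and 205 to 381 in F4/80lo Mϕ. Ccr2, the receptor of recruited monocytes, was at 1199 and 704 against 20.2 to 306 in the other 4. The summed level of a list of 10 monocyte-derived Mϕ genes that holds Ccr2 and H2-Ab1 did not follow Ccr2. This sum was lowest in both VEH libraries 3, at 6584 against 24573 to 47150 in the other F4/80lo and at 5437 against 18013 to 30544 in the other F4/80hi libraries. Fn1 had the highest mean of the 10 genes in every group (7246 to 19217 RPM). In F4/80hi Mϕ, H2-Ab1 was highest in library 3 of each treatment. It was at 492 RPM against 388 and 173 in VEH and at 3984 against 1480 and 433 in CIII libraries. The summed level of 10 genes of resident peritoneal Mϕ was 697 and 1041 in F4/80hi libraries 3, 3156 to 5641 in the other 4 and 584 to 1622 in F4/80lo Mϕ. Over the 12 libraries the summed levels of markers of other cells were 1.45 to 197 RPM for B cells, 0 to 61.9 for T and NK cells, 0 to 16.9 for mast cells and eosinophils and 0 to 1.90 for mesothelium. The part of these differences in the results was not tested.

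In F4/80lo Mϕ, 7 of the 10 genes reached a mean of 3 normalized counts and were tested (Il6, Il10 and Nos2 did not, in any comparison), and 0 passed an adjusted p of 0.05 in limma. The background was 0% (0 of 10718 genes, with 289 at an unadjusted p below 0.05), while edgeR called 0 and DESeq2 called 2 genes, neither of them among the 7. No tested gene had an unadjusted p below 0.05. The CIII mean was above the VEH mean on the log2 scale for 2 genes (Il1b and Csf1, the latter having passed the filter only through its CIII libraries) and below it for 5, with a median difference of -0.37 against -0.05 over all genes. In F4/80hi Mϕ, 0 of 7 tested genes passed the threshold as well. There the background was 0% (0 of 10499, with 413 at an unadjusted p below 0.05, and 0 by edgeR or DESeq2), 4 genes were higher and 3 lower in CIII, and the median was 0.27 against 0.05. With 3 libraries per treatment no exact two-sided permutation p can be below 0.1, and in sorted bulk RNA fewer cells of a type and less RNA per cell cannot be told apart.

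**Figure D1:**
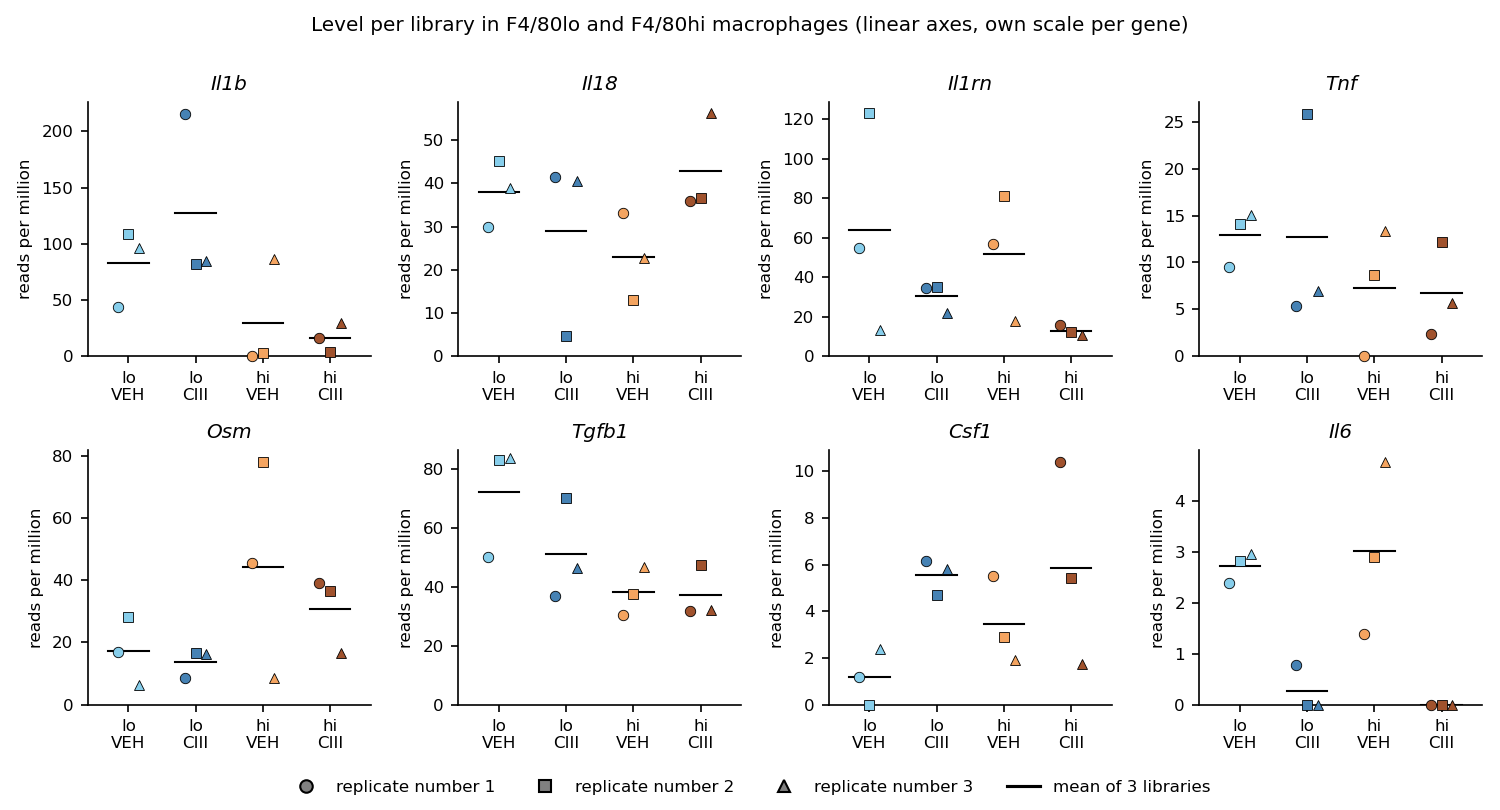
RPM in each of the 12 libraries for 8 genes, with marker shape for the replicate number and a bar for the mean of 3 libraries. Il1b was at most 29.8 in 5 of 6 F4/80hi libraries, and Il6 was at 0 in all 3 F4/80hi CIII libraries.

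Il1rn, the IL-1 receptor antagonist, had the smallest p of the treatment comparisons. Its normalized counts in F4/80hi Mϕ were 54.5, 73.2 and 19.9 in VEH libraries 1 to 3 and 14.4, 10.8 and 10.4 in CIII libraries. Every CIII library lay below every VEH library, and VEH library 3 was the closest to them. The means were 49.2 ± 27.0 for VEH and 11.9 ± 2.22 for CIII (SD, n = 3), a log2 difference of -1.79 (SE 0.54, 95% interval -3.01 to -0.57) with an unadjusted limma p of 0.0089 and an adjusted p of 0.992. The exact permutation p was 0.1, the smallest these libraries allow. Without the libraries numbered 3 the difference was -2.25, and without any 1 library it lay between -2.33 and -1.42. Il1rn was 1 of 7 tested genes whose CIII libraries were all lower, against 5.76% of all genes in F4/80hi Mϕ. Neutrophils also transcribe Il1rn, although the gating places them among Ly6G+ cells low in F4/80 and MerTK, outside the F4/80hi gate. The neutrophil marker S100a8 was at 41.4, 27.5 and 74.2 RPM with VEH and at 13.6, 6.77 and 14.3 with CIII. Of 10 neutrophil markers 5 had a read in the VEH and 7 in the CIII libraries, their summed level ranged from 52.5 to 128 against 41.9 to 60.7, and Ly6g was at 0 in all 6. Mean levels were 25.4 in VEH and 27.2 in CIII for Csf3r and 3.48 and 6.41 for Mmp9. S100a9, the partner of S100a8, was too weak to be tested, at 7.61 in VEH library 3, 0.798 in CIII library 1 and 0 in the other 4. The part of neutrophil RNA in the Il1rn difference was not tested.

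Il1rn of F4/80lo Mϕ was at 53.5, 112 and 15.0 normalized counts in VEH and 31.9, 34.3 and 21.0 in CIII libraries. These groups overlapped, since VEH library 3 was the lowest of the 6. The difference was -0.65 (SE 0.64, unadjusted limma p 0.333, adjusted p 0.9996), and -1.20 without libraries 3. Single libraries decided its size, since it was -1.41 without VEH library 3 and -0.0036 without VEH library 2. Subtracting the F4/80hi from the F4/80lo response of Il1rn gave 1.11 (SE 0.98, unadjusted limma p 0.276, adjusted p 1.00), and 0.266 to 1.82 without any 1 library, so the subpopulations were not shown to differ.

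Il1b, the main secreted IL-1 agonist of Mϕ, was spread widely in both treatments. Its normalized counts in F4/80lo Mϕ were 43.1, 98.8 and 109 in VEH and 199, 80.0 and 80.7 in CIII libraries. CIII library 1 was the highest of the 6, while the other two CIII libraries lay among the VEH libraries. The log2 difference was 0.48 (SE 0.48, unadjusted limma p 0.340). It was 0.05 without CIII library 1, 0.064 without VEH library 1, 0.73 without VEH library 3, 0.94 without libraries 3 and 1.44 with library quality weights (adjusted limma p 0.245). The VEH libraries of F4/80hi Mϕ were at 0, 2.61 and 95.4 and their CIII counterparts at 14.4, 3.61 and 28.4. Both treatments had their highest value in library 3, and the fitted difference of 0.86 (SE 1.49) turned to -1.07 in edgeR, to -1.07 in DESeq2, and to -0.54 without VEH library 1. In the other direction it grew to 2.75 without VEH library 3 (unadjusted limma p 0.0191, adjusted p 0.462), to 2.15 without libraries 3 and to 2.001 with library quality weights. No direction of Il1b with CIII can therefore be given in F4/80hi Mϕ.

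Il18, which many resident Mϕ hold constitutively as a precursor, was measured in F4/80hi Mϕ at 31.9, 11.8 and 25.2 normalized counts with VEH and at 32.5, 32.5 and 53.6 with CIII. The groups did not overlap, although VEH library 1 and the lower CIII libraries lay within 1 normalized count. The difference was 0.83 (SE 0.48, 95% interval -0.26 to 1.91, unadjusted limma p 0.121, adjusted p 0.992), and 0.43 without VEH library 2. Il18 was 1 of 7 tested genes whose CIII libraries were all higher, against 4.73% of all genes. Among F4/80lo libraries it was at 29.1, 41.1 and 44.0 in VEH and 38.3, 4.57 and 38.7 in CIII libraries. The low CIII library 2 is the shallowest of the 12, with 426624 reads, and set the direction, since the difference was -0.90 (SE 0.71) with it and 0.04 without it. For the responses, F4/80lo minus F4/80hi came to -1.77 (SE 0.94, unadjusted limma p 0.0801, adjusted p 1.00), and -0.81 without that library.

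**Figure D2:**
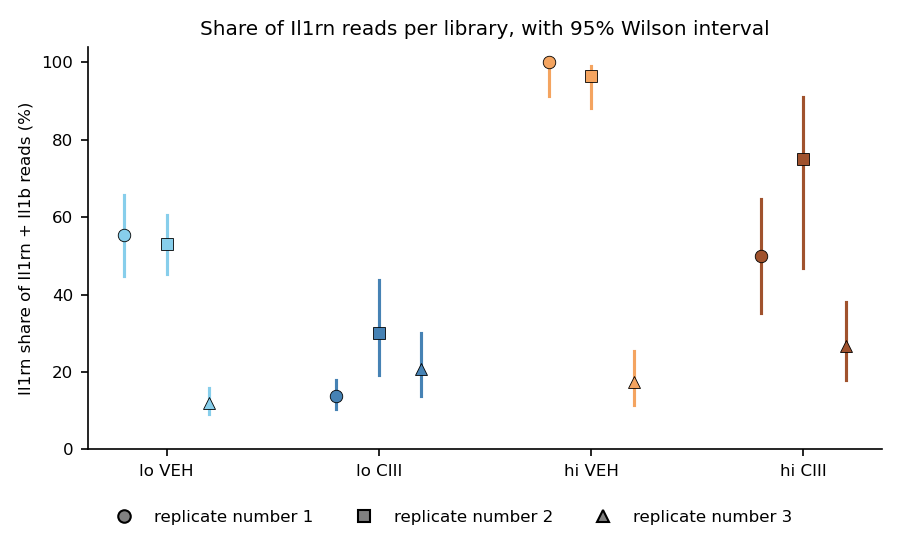
Il1rn reads as a percentage of Il1rn and Il1b reads together in each library, with 95% Wilson intervals that cover counting error only. VEH libraries 1 and 2 of F4/80hi Mϕ sit above 96% and every library 3 sits below 27%.

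The reads of Il1rn and Il1b were also set against each other within each library, which needs no normalization. In F4/80hi Mϕ, Il1rn made up 41 of 41, 56 of 58 and 19 of 110 of these reads in VEH libraries, or 100%, 96.6% and 17.3% (Wilson intervals 91.4 to 100, 88.3 to 99.0 and 11.3 to 25.4%). In the CIII libraries it made up 50%, 75% and 26.8%, with 40, 12 and 71 reads in all. VEH libraries 1 and 2 thus held nearly pure antagonist reads, while both libraries 3 held mostly agonist reads. The F4/80lo shares were 55.4%, 53.0% and 12.1% in VEH and 13.8%, 30% and 20.7% in CIII libraries. Within numbers 1 and 2 the share was lower in CIII in both subpopulations, and within number 3 it was higher in both. This measure was formed after the values were seen and was not tested, and because 3′ reads of different genes are captured unequally, it is no ratio of transcripts.

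Tnf, which is induced through NF-κB, was weak. Normalized counts in F4/80lo Mϕ were 9.31, 12.8 and 17.0 in VEH and 4.97, 25.1 and 6.63 in CIII libraries. CIII library 2 was the highest and the other CIII libraries the lowest of the 6, and the difference was -0.37 (SE 0.71, unadjusted limma p 0.613). Among F4/80hi libraries, VEH was at 0, 7.84 and 14.7 and CIII at 2.17, 10.8 and 5.47, with a difference of 0.27 (SE 1.09) that was -0.36 in edgeR, -0.33 in DESeq2 and 1.04 without libraries 3. Osm, which signals through gp130 as IL-6 does, differed between treatments by -0.19 (SE 0.64) among F4/80lo and by -0.24 (SE 0.70) among F4/80hi libraries, with overlapping treatments in both. Without libraries 3 these were -0.81 and -0.70, and leaving out 1 library gave either sign in both subpopulations.

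Il6 was at the limit of detection and was not part of the fit, having a mean below 3 normalized counts in each subpopulation. In F4/80lo Mϕ it had 2, 2 and 10 reads with VEH and 1, 0 and 0 with CIII, which are 2.33, 2.57 and 3.33 against 0.71, 0 and 0 normalized counts. In F4/80hi Mϕ it had 1, 2 and 5 reads in VEH (1.33, 2.61 and 5.24 normalized counts) and 0 in every CIII library. The treatments therefore did not overlap in either subpopulation, with and without libraries 3. Pooled over libraries, VEH was at 2.84 and CIII at 0.386 RPM in F4/80lo Mϕ, a ratio of 7.35 with a counting interval of 1.12 to 311. In F4/80hi Mϕ VEH was at 3.24 RPM and CIII, the deeper group with 3734974 reads against 2466692, at 0, and the counting interval of the ratio began at 2.58. VEH library 3 held 5 of those 8 reads. Without libraries 3 the intervals began at 0.443 (F4/80lo) and 0.581 (F4/80hi), so that counting error alone then covered equal levels. The exact two-sided permutation p was 0.1 in each subpopulation, the smallest possible. Among genes with a mean from 1 to below 3 normalized counts, every CIII library was below every VEH library for 5.84% of 1917 (F4/80lo) and 4.13% of 1864 (F4/80hi). Il6 was singled out after its values were seen, the 2 comparisons share no libraries but may share mice, and they rest on 15 and 8 reads.

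Tgfb1 was the more abundant of the regulatory cytokines. F4/80lo libraries held 48.9, 75.7 and 94.6 normalized counts of it with VEH and 34.0, 68.5 and 44.2 with CIII. Each CIII library was below the VEH library of its number, but the groups overlapped and the difference was -0.58 (SE 0.42, unadjusted limma p 0.201, adjusted p 0.9996). It was -0.35 without CIII library 1, -0.37 without VEH library 3 and -0.33 without libraries 3. The F4/80hi difference was -0.15 (SE 0.40), and 0.14 without libraries 3. Il10 had 2 reads in F4/80lo VEH library 3, 3 reads in F4/80hi CIII library 1 and 0 in the other 10 libraries, so a treatment difference was not detectable at this depth.

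Csf1 was low in every group. F4/80lo Mϕ had 1, 0 and 8 reads of it in VEH and 8, 2 and 5 in CIII libraries, which are 1.16, 0 and 2.66 against 5.67, 4.57 and 5.53 normalized counts. All CIII libraries were above all VEH libraries, but Csf1 passed the filter only through the CIII group (means of 5.26 and 1.28), so this order is a description. A non-overlapping order held for 3.82% of all genes with CIII higher and for 4.92% with CIII lower. The difference was 1.65 (SE 0.99, 95% interval -0.54 to 3.83) and fell to 0.73 at a pseudocount of 5. Csf1 was below the filter without CIII library 1, without CIII library 3 and without libraries 3. Csf1 of F4/80hi Mϕ was at 5.32, 2.61 and 2.10 against 9.39, 4.81 and 1.64, and the difference of 0.39 (SE 0.82) was -0.08 without CIII library 1 and 0.70 without libraries 3. Nos2, which makes nitric oxide in classically activated Mϕ, had 7 reads over all F4/80lo and 1 read over all F4/80hi libraries, below what could show a difference.

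Between the subpopulations, 0 of 7 tested genes passed an adjusted p of 0.05 in the fit of 12 libraries with treatment as a covariate. The background was 11 of 10736 genes higher in F4/80lo Mϕ (0.102%) and 1 lower (0.00931%). No tested gene had F4/80lo and F4/80hi libraries that did not overlap, a pattern found in 0.587% of genes with F4/80lo higher and 0.13% with F4/80lo lower. In all 4 genes were higher and 3 lower in F4/80lo Mϕ, with a median log2 difference of 0.60 against 0.07 over all genes, and 3 (Il1b, Tgfb1 and Osm) had an unadjusted p below 0.05, as did 1096 of the 10736 genes.

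**Figure D3:**
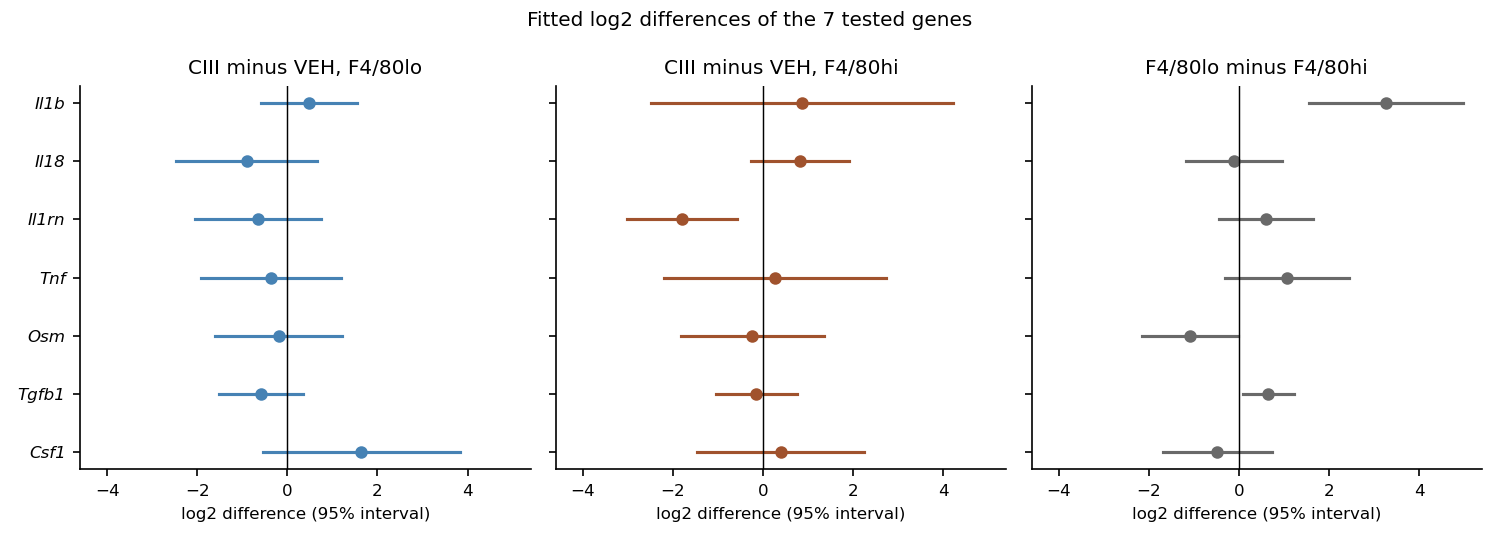
Fitted log2 differences (points) with 95% intervals (lines) of the 7 tested genes for CIII minus VEH in each subpopulation and for F4/80lo minus F4/80hi. The intervals that do not cross 0 are those of Il1rn in F4/80hi Mϕ and of Il1b, Osm and Tgfb1 between the subpopulations.

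Il1b had the largest of these differences. F4/80lo libraries were at 44.2, 109 and 96.8 RPM in VEH and 215, 82.0 and 84.6 in CIII libraries. F4/80hi libraries were at 0, 2.89 and 86.6 in VEH and 16.0, 4.06 and 29.8 in CIII libraries. All F4/80hi libraries but VEH library 3 were below every F4/80lo library. The means were 105 ± 58.1 and 23.2 ± 33.0 (SD, n = 6), and the log2 difference was 3.28 (SE 0.81, 95% interval 1.57 to 4.99) with an unadjusted limma p of 0.00093, an adjusted p of 0.128 and an exact permutation p of 0.00866. F4/80lo was higher in 6 of 6 pairs of the same treatment and number, and the VEH pair of number 3 differed by 0.16. The sources do not give this pairing. The share of all genes that reach 6 of 6 was not counted, so this count is a description, here and for Tgfb1, Osm and Tnf. When the model held the replicate number as a block, the adjusted limma p was 0.0120, below the threshold. The difference was 4.51 (adjusted limma p 0.000131) without libraries 3 and 4.06 (adjusted limma p 0.00587) without F4/80hi VEH library 3 alone, and it was 2.01 in edgeR (adjusted p 0.386).

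**Figure D4:**
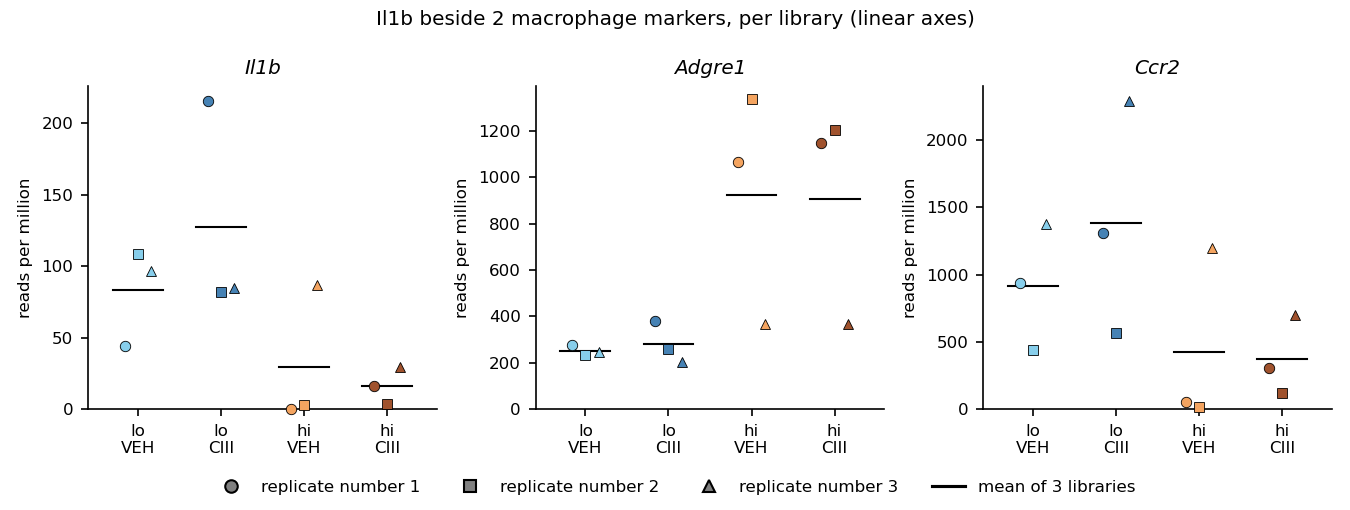
RPM of Il1b, of Adgre1 (F4/80) and of Ccr2 (a monocyte receptor) in each library, with marker shape for the replicate number and bars for means. Both F4/80hi libraries 3 are low in Adgre1 and high in Ccr2 among F4/80hi libraries, and both have the highest Il1b of their group.

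Cell type markers were also compared between the subpopulations, and only Cx3cr1 passed the threshold. All 10 genes of a monocyte-derived Mϕ list were tested, 9 were higher in F4/80lo Mϕ, and Cx3cr1, the fractalkine receptor, passed the threshold (2.81, SE 0.42, adjusted limma p 0.0215). Of 8 dendritic cell markers 5 were tested and all 5 were higher in F4/80lo Mϕ, with a summed level of 7.08 to 390 RPM there and 2.71 to 26.0 in F4/80hi Mϕ. B cell markers were higher in F4/80lo Mϕ for 3 of 3 tested (20.7 to 197 against 1.45 to 67.1 RPM in sum) and T and NK cell markers for 2 of 2 (5.65 to 44.5 against 0 to 61.9), while neutrophil markers were higher for 1 of 3 and resident Mϕ markers for 0 of 10. Dendritic cells can share CD11b and MHCII with the F4/80lo gate, although the gating sets CD11c+, MHCII+ cells aside first, and the part of any of these cells in the Il1b difference was not tested.

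Tgfb1 was at 50.2, 83.3 and 83.8 (VEH) and 36.9, 70.3 and 46.4 (CIII) RPM in F4/80lo Mϕ, against 30.4, 37.6 and 46.6 and 31.9, 47.4 and 32.1 in F4/80hi Mϕ. F4/80lo was the higher in 6 of 6 pairs of the same treatment and number, although the groups overlapped. The difference was 0.66 (SE 0.27, unadjusted limma p 0.0265, adjusted p 0.419, exact permutation p 0.0216), within 0.56 to 0.77 without any 1 library. Osm had the reverse order, with 16.7, 28.2 and 6.20 (VEH) and 8.45, 16.4 and 16.2 (CIII) in F4/80lo Mϕ against 45.6, 78.1 and 8.57 and 39.1, 36.6 and 16.6 in F4/80hi Mϕ. F4/80hi libraries 3 were the lowest for Osm in their groups. Osm was lower in F4/80lo Mϕ in 6 of 6 pairs, with a difference of -1.08 (SE 0.50, unadjusted limma p 0.0482, adjusted p 0.484, exact permutation p 0.0714). Without libraries 3 it was -1.51 (adjusted limma p 0.0392).

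Tnf was on average 12.8 ± 7.42 RPM among F4/80lo and 7.05 ± 5.32 among F4/80hi libraries, a difference of 1.06 (SE 0.65, unadjusted limma p 0.121) with F4/80lo higher in 6 of 6 pairs. The difference was 0.50 without F4/80hi VEH library 1, which had no Tnf read. Il1rn (0.60, SE 0.49), Il18 (-0.11, SE 0.50) and Csf1 (-0.47, SE 0.57) differed by less than 1.5 times their standard errors. Leaving out 1 library gave 0.35 (without F4/80lo VEH library 2) to 1.04 (without F4/80lo VEH library 3) for Il1rn and -0.79 (without F4/80hi CIII library 3) to -0.19 (without F4/80lo VEH library 2) for Csf1, which was at -1.09 without libraries 3. Il18 averaged 33.5 ± 15.0 RPM among F4/80lo and 32.9 ± 14.6 among F4/80hi libraries, and the 95% interval of its log2 difference ran from -1.18 to 0.96. By treatment, the Il18 difference was 0.77 in VEH libraries only and -0.99 in CIII libraries only, and that of Il1rn was 0.05 and 1.16. The CIII responses of the 7 genes were also compared between the subpopulations. None had an unadjusted limma p below 0.05 for that difference with all 12 libraries, and over all genes 0 of 10736 (0%) passed the threshold, with 191 at an unadjusted p below 0.05 and 0 called by edgeR.

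Of the 10 genes 5 averaged at least 10 RPM over the 12 libraries, and for these the genes with the most alike profile were found among 8448 genes, by the root mean square (RMS) distance of centred log2 levels. For Il1b, whose log2 level had an SD of 2.27 across libraries, these were Ms4a4c (RMS distance 0.57), Fgd2 (0.90) and Rasgrp1 (0.97). Osm was nearest to Clec4d (0.41), Gm16104 (0.42) and Impdh1 (0.43), and Il1rn to Srm (0.41), Mrps6 (0.54) and Atp5d (0.54). The nearest to Il18 was Chid1 (0.32) and to Tgfb1 Las1l (0.21). Libraries of the same number also deviated together, depth differed between libraries, and the part of either in these profiles was not tested.

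The genes around these cytokines were read from 4 lists, with 0 genes past the threshold in any of them in any comparison. Over all genes tested, CIII was higher for 4918 of 10718 in F4/80lo and for 5620 of 10499 in F4/80hi Mϕ. Of 17 receptors and decoys, 14 were tested in F4/80lo Mϕ, of which 11 were higher in CIII (median 0.51), and 13 in F4/80hi Mϕ, of which 11 were higher (median 0.60). Tnfrsf1a, the main TNF receptor, was at 432 ± 45.3 normalized counts in CIII and 264 ± 49.8 in VEH in F4/80lo Mϕ (0.72, SE 0.32, unadjusted limma p 0.0484, adjusted p 0.9996). Il10ra, the ligand-binding IL-10 receptor chain, was at 194 ± 51.2 and 107 ± 51.7 (0.92, SE 0.40, unadjusted limma p 0.0418). Csf1r, the CSF-1 receptor, was at 1338 ± 139 and 809 ± 262 (0.77, SE 0.38). Tnfrsf1b, the second TNF receptor, was at 277 ± 29.7 and 187 ± 19.0 in F4/80lo (0.57, SE 0.31) and at 223 ± 12.4 and 141 ± 20.8 in F4/80hi Mϕ (0.67, SE 0.30, unadjusted limma p 0.0530). Il18r1, an IL-18 receptor chain, was weak and lower in CIII in F4/80hi Mϕ, at 0.91 ± 1.58 and 6.75 ± 6.28 (-1.94, SE 1.07, unadjusted limma p 0.103). Beside these receptors, 2 of 7 tested ligands and mediators were higher in CIII in F4/80lo and 4 of 7 in F4/80hi Mϕ. Of the 5 lower ones in F4/80lo Mϕ, Tnf, Osm and Il18 changed sign when 1 library was left out, and the lists were not tested against each other. Cell type markers were compared between treatments as well. Of the 10 monocyte-derived Mϕ markers 8 were higher in CIII in F4/80lo (median 1.22) and 8 in F4/80hi Mϕ (median 1.40), with summed levels of 30205 to 47150 RPM in CIII against 6584 to 30464 in VEH and of 23463 to 30544 against 5437 to 18506. All 10 had reads in every group. Fn1 had the highest mean, at 13843 RPM in CIII and 7246 in VEH in F4/80lo and at 19217 and 11757 in F4/80hi Mϕ. Ly6c2 and Retnla were lower in CIII in both subpopulations. Mean Ccr2 in F4/80hi Mϕ was 376 RPM in CIII and 424 in VEH, although its fitted log2 difference was 1.30. Dendritic cell markers were higher for 5 of 5 tested in F4/80lo (median 0.92) and for 0 of 2 in F4/80hi Mϕ, and resident Mϕ markers for 6 of 9 (median 0.41) and 2 of 10 (median -0.18). In the same order, neutrophil markers were higher for 1 of 4 (median -1.15) and 1 of 3 (median -0.02). B cell markers were higher for 1 of 3 (median -0.44) and 2 of 2 (median 1.76), and T and NK cell markers for 2 of 3 and 0 of 1. None of these markers passed the threshold, and their part in the list counts was not tested. With RPM in place of size factors, 12 of 14 and 12 of 13 receptors were higher, against 5495 of 10718 and 6365 of 10499 of all genes, and the median of all genes in F4/80hi Mϕ moved from 0.05 to 0.15.

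**Figure D5:**
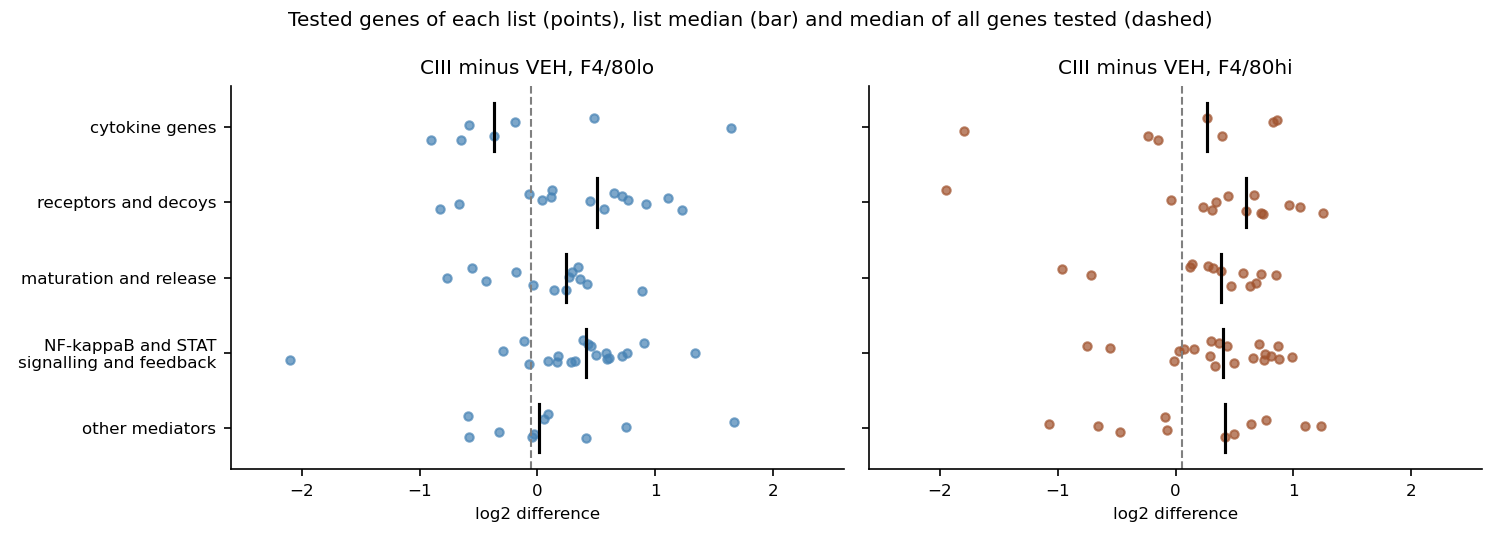
Log2 difference of CIII minus VEH for each tested gene (points) of the cytokine genes and the 4 surrounding lists, with list medians (bars) and the median of all genes tested (dashed line). In F4/80lo Mϕ the cytokine genes have a median of -0.37 and the receptors one of 0.51.

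Of 14 genes of cytokine maturation and release 13 were tested, of which 8 were higher in CIII among F4/80lo (median 0.24) and 11 among F4/80hi libraries (median 0.38). Casp1, the protease that matures IL-1β and IL-18, was at 144 ± 40.9 in CIII and 84.5 ± 50.9 in VEH in F4/80lo Mϕ (0.89, SE 0.45) and at 111 ± 21.7 and 72.4 ± 18.6 in F4/80hi Mϕ (0.63, SE 0.36). Pycard, the inflammasome adaptor ASC, had the lower mean in CIII, at 190 ± 44.2 and 256 ± 39.7 in F4/80lo (-0.44, SE 0.34) and 264 ± 51.7 and 447 ± 166 in F4/80hi Mϕ (-0.72, SE 0.37). All 20 genes of NF-κB and STAT signalling and its feedback were tested, with 16 higher among F4/80lo (median 0.41) and 17 among F4/80hi libraries (median 0.40). Among them Tnfaip3, which encodes the NF-κB inhibitor A20, was at 3.84 ± 3.58 in CIII and 15.2 ± 6.80 in VEH in F4/80lo Mϕ (-2.10, SE 0.92, unadjusted limma p 0.0430, adjusted p 0.9996). The F4/80hi difference of Tnfaip3 was 0.66 (SE 0.70), and its responses differed by -2.81 (SE 1.14, unadjusted limma p 0.0275, adjusted p 1.00). Rela, an NF-κB subunit, was at 93.4 ± 25.7 and 53.5 ± 3.71 in F4/80lo Mϕ (0.76, SE 0.37), and Stat3, which relays IL-6 and IL-10 signals, at 296 ± 67.3 and 179 ± 62.7 in F4/80hi Mϕ (0.75, SE 0.37). Of 21 other Mϕ mediators 10 and 11 were tested, with 5 and 6 higher and medians of 0.01 and 0.42. Il27, a subunit gene of IL-27, was at 8.38 ± 2.64 in CIII and 3.72 ± 5.46 in VEH in F4/80lo Mϕ (1.67, SE 1.02), and its partner Ebi3 at 21.1 ± 9.50 and 31.7 ± 10.7 (-0.58, SE 0.52). Between the subpopulations 9 of 14 receptors, 10 of 13 maturation genes, 16 of 20 signalling genes and 5 of 11 mediators were higher in F4/80lo Mϕ, against 5983 of all 10736 genes.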

How the data were processed

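mRNA of sorted F4/80lo and F4/80hi Mϕ from VEH- and CIII-treated mice was measured by 3′ sequencing with unique molecular identifiers (QuantSeq FWD-UMI). The authors trimmed reads with Bbduk, mapped them to GRCm38 with STAR, collapsed UMI duplicates, counted reads per gene with HTSeq-count and normalized them with DESeq2. Tool versions are not given in the sources used here. The deposited values are normalized counts, a signal in which the authors divided the reads of each library by a size factor set within each subpopulation. In each library 100% of the values came out as whole reads (tolerance 0.1) once divided by what 1 read is worth, and whole reads and reads per 1000000 were recovered from this step. Rows without a gene were not in the tables. Symbols and coordinates came from GENCODE on GRCm38 for 47224 of 47643 identifiers.

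Treatments were compared within each subpopulation with limma 3.58.1 in R 4.3.3 on log2(normalized count + 1), for genes with a mean of at least 3. Subpopulations were compared on log2(reads per 1000000 + 1) over 12 libraries with treatment as a covariate, and the difference of responses as an interaction. Fold changes on this scale understate those of weak genes. P-values are two-sided and were adjusted over all genes tested (Benjamini-Hochberg, threshold 0.05). Exact permutation tests were run on the same log2 values for single genes, except Il6, for which normalized counts were used. Depth was 426624 to 3389448 reads per library. Groups came from the sample labels. VEH and CIII libraries of the same replicate number deviated together within each subpopulation (correlation across genes of deviations from the group means F4/80lo 0.121, 0.238 and 0.504, F4/80hi 0.216, 0.412 and 0.639). This hint from the data rests mainly on number 3, because VEH library 1 correlated more with CIII library 2 (F4/80lo 0.171, F4/80hi 0.285) than with CIII library 1. The main fits did not use the numbers. The numbers served as the replicate block of an alternative fit and to set libraries side by side. Whether F4/80lo and F4/80hi libraries of the same number deviated together was not measured.

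Alternatives were other scalings, pseudocounts and filters, the replicate block, library weights, edgeR 4.0.16 and DESeq2 1.42.0 on recovered reads, numbers 1 and 2 only, and leaving out each library. The fits were tested on simulated data. The genes, the lists and the tests were chosen with earlier results of these data known. All 10 genes are reported, with reads but no fit for Il6, Il10 and Nos2. From each other list, up to 4 genes with the smallest unadjusted p in a treatment comparison, or with the largest difference among those past the threshold between subpopulations, could be named, and not all of these are. Markers given beside a result were chosen after seeing the data. Promoter windows came from RefSeq (GRCm38.p6). Figures were drawn with matplotlib 3.10.9.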

Additional observations from a re-analysis of the deposited data

How the results depend on the processing

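Among 521 alternative values for single genes, 476 kept their direction and side of the threshold, 5 crossed it, 39 changed sign and 1 had no adjusted p (Il1b between subpopulations in DESeq2). A further 11, all of Csf1 or Tnf, could not be fitted because the gene was below the filter. The 5 were between the subpopulations: Il1b under the replicate block, with library weights (3.73, adjusted limma p 0.00669), with numbers 1 and 2 only and without F4/80hi VEH library 3, and Osm with numbers 1 and 2 only. With the replicate block the paired fit called 0 genes for CIII in either subpopulation and 277 between subpopulations, and changed no other call of the 10 genes. The causes of these differences were not tested.

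The count of called genes for CIII in F4/80lo Mϕ was 2 with DESeq2, 2 with library weights and 12 with numbers 1 and 2 only. Between subpopulations the count of 12 became 0 without a filter, 5 at a mean of at least 10, 19 in edgeR, 162 in DESeq2, 195 with library weights, 0 in VEH libraries only, 2 in CIII libraries only, 384 with numbers 1 and 2 only, and 0 to 125 leaving out each library in turn, a move of over 1.5 times for each of the 12, with 125 without F4/80hi VEH library 3.

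Signs turned as follows. For CIII in F4/80lo Mϕ, Tnf was 0.0640 with numbers 1 and 2 only, and leaving out each library gave -1.02 to 0.0449 for Tnf, -0.67 to 0.20 for Osm and -1.38 to 0.0381 for Il18. In F4/80hi Mϕ, Tnf was -0.0299 at a pseudocount of 5, -0.36 in edgeR and -0.33 in DESeq2, Il1b was -1.07 in edgeR and -1.07 in DESeq2, and Tgfb1 was 0.14 with numbers 1 and 2 only. Leaving out each library there gave -0.54 to 2.75 for Il1b, -0.92 to 1.07 for Tnf, -1.05 to 0.34 for Osm, -0.31 to 0.0808 for Tgfb1 and -0.0783 to 0.91 for Csf1. Between subpopulations, Il18 was 0.0268 in edgeR, 0.13 with library weights, 0.77 in VEH libraries only and -0.36 to 0.42 leaving out each library, and Csf1 was 0.16 in CIII libraries only. For the difference of responses, Il1b (-0.43 with all libraries) was 0.240 at a pseudocount of 5 and 1.52 in edgeR, Tnf (-0.68) was 0.0824 in edgeR, and Osm (0.0035) was -0.36 with library weights and -0.18 with numbers 1 and 2 only. Leaving out each library gave -2.26 to 0.971 for Il1b, with -2.26 without F4/80hi VEH library 3 (unadjusted limma p 0.0498, adjusted p 0.977), -1.41 to 0.507 for Tnf and -0.632 to 0.892 for Osm. Depth limits Il6, Il10, Nos2 and Csf1, which had at most 14 reads in a group, or 20 for Csf1.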
